A study of Mus musculus with 12 samples.

Results

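Olfactory receptor genes were read in the liver of mice on 4 diets, through the probes of a whole-genome array. A probe was taken as a member when the accession of its spot belonged to a gene named Olfr and a number and when its signal was well above background (a call of the scanner software for each spot) on all 12 arrays. In all, 243 of 1157 olfactory receptor probes met this rule, and they stood for 240 of 1067 receptor genes with a probe, among 39429 non-control probes on the array. The members were thus chosen by their own signal, so that their levels are given as a description with no test.

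Liver RNA was taken from C57BL/6N females, bought at 6 weeks of age and kept for 2 weeks before 6 months on the diet, with 3 mice in each of 4 groups and 1 array per mouse. Ctrl mice ate a normal formula diet (NFD) whose carbohydrate was corn starch and sucrose, and RS mice ate that diet with resveratrol added. In the DJ diet, starch and sucrose gave way to Dongjin rice, and in the DJ526 diet to DJ526, a line of Dongjin rice that carries a peanut stilbene synthase gene and is enriched in resveratrol. DJ526 and DJ thus differ in the transferred gene as well as in resveratrol, and all DJ526 values rest on 1 rice line. A sample sheet issued with the study pairs the identifiers of the RS and DJ arrays the other way round; the groups here follow the GEO labels, on which every RS and DJ value below depends.

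Olfactory receptors are G protein-coupled receptors and form one of the largest gene families of the mouse. A sensory neuron of the nose expresses a single one of them, with the coupling protein Gnal, the cyclase Adcy3 and the channel of Cnga2, Cnga4 and Cngb1 turning odour binding into a current. Class I receptors, related to those of fish, lie mostly in a cluster on chromosome 7, and class II receptors are spread over many chromosomes. Some receptors are also read outside the nose; Olfr544, which binds azelaic acid, is among those known from liver and fat.

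Values are log2 of the processed signal of a probe over the 75th percentile of all probes of the same array. Between 72.4% and 80.4% of all probes were well above background on an array, and the liver markers were bright (9 of 9 hepatocyte genes on all 12 arrays), whereas 7 of 10 markers of olfactory sensory neurons were also above background on all 12, mostly as dim spots (Omp at a mean of -3.34), and Cnga4 was on none. The 12 arrays lay on 3 slides of 4. Slide 1 held Ctrl 1 to 3 and DJ 1, slide 2 held DJ 2 and 3 and RS 1 and 2, and slide 3 held RS 3 and the 3 DJ526 arrays, so that no slide held both DJ526 and Ctrl or both DJ526 and DJ. For those contrasts diet and slide cannot be told apart, except through the single array RS 3.

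Receptor probes were detected less often than others. On all 12 arrays, 21.0% of the olfactory receptor probes were well above background, against 69.3% of all probes, and 45.9% were so on no array. Of other chemosensory families, 17.7% of 175 Vmn1r probes, 19.8% of 111 Vmn2r probes, 3 of 15 Taar probes and 13.5% of 37 Tas2r probes were on all 12, as were 3 of 3 Tas1r probes. By the receptor family names among the RefSeq synonyms, 19.0% of 137 class I and 21.0% of 998 class II probes were on all 12. Per array, between 291 (Ctrl 2) and 453 (DJ526 2) receptor probes were above background. The 3 DJ526 arrays had 421, 453 and 400, RS 3 had 415, and the other 8 had 291 to 401. Detection over all probes also differed between arrays. It was 78.9%, 80.4% and 76.6% on the DJ526 arrays, 77.9% on RS 3 and 72.4% (Ctrl 2) to 78.8% (Ctrl 1) on the other 8. Of the probes that missed the rule on 1 array, Olfr441 had the highest mean (-4.34) and was missed on RS 3, followed by Olfr786 (-5.12), Olfr870, Olfr1370 and Olfr898 (-5.41). The lowest means among the members belonged to Olfr815 (-6.39), Olfr320 (-6.29) and Olfr535 (-6.28).

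Most members were dim. Their 12-array means ran from -6.39 to 2.10 with a median of -4.72, where all probes that passed on 12 arrays had a median of -1.48. Only 3 members had a mean above 0, the level of the 75th percentile, and 172 had one below -4. Signals of 2 probes depend on their sequences too and are not compared here as amounts of RNA. Probes of the same gene often did not agree on detection. Of 28 genes with several probes and a member among them, 3 (Olfr1036, Olfr282 and Olfr456) had every probe above background on all 12 arrays, 16 had another probe on 1 to 11 arrays and 9 had another on none. Olfr373 had a member at a mean of 0.44 and a second probe at -7.45, on 4 arrays. Olfr612 had a member at -4.46 and a second probe at -8.42, on no array. For 7 members the gene overlaps another gene, among them Olfr1535, which overlaps the long non-coding RNA Gm32724, and a probe's signal alone does not tell the partners apart.

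The brightest member was Olfr544, the azelaic acid receptor. Its values were 1.92, 2.09 and 1.77 in Ctrl, 1.92, 2.10 and 2.14 in RS, 2.30, 2.13 and 2.01 in DJ and 2.09, 2.30 and 2.41 in DJ526. The lowest DJ526 mouse lay level with the highest Ctrl mouse, and RS and DJ lay across both. The widest difference between group means was that of DJ526 minus Ctrl, at 0.34 (SE 0.11, adjusted p = 0.321, limma with Benjamini-Hochberg adjustment over all probes, as for every adjusted p here). Next came Olfr373, at -0.19, 0.33 and 0.06 in Ctrl and 0.64, 0.66 and 0.85 in DJ526, and then Olfr1466, at -0.04, -0.17 and 0.01 in Ctrl and 0.72, 0.62 and 0.43 in DJ526. In both, every DJ526 mouse read above every Ctrl mouse, as in 12.5% of all probes, and neither difference passed the test. For Olfr373, RS read 0.32, 0.73 and 0.64 and DJ read 0.44, 0.72 and 0.08, so that both reached into the DJ526 range. The 5 other members among the 8 brightest, Olfr1347, Olfr1368, Olfr1535, Olfr549 and Olfr1443, had means of -0.42 to -0.72.

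Of 16 members named for their signal, test or range that had a RefSeq promoter window, the gene model of 14 begins at the start codon, and the window then says nothing about where transcription starts. The 2 whose model begins upstream were Olfr544 and Olfr1443, and the 250 bases before their annotated start (RefSeq, GRCm38.p6) are shown since they are the only ones of the brightest members that can be read as promoter sequence. The Olfr544 window is chr7:102488308-102488557 on the minus strand and the Olfr1443 window is chr19:12677916-12678165 on the plus strand.
Olfr544: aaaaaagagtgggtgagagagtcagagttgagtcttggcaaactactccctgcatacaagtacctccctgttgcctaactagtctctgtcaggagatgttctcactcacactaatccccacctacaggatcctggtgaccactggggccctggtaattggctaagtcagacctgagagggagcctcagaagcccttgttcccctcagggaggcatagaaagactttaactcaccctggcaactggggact
Olfr1443: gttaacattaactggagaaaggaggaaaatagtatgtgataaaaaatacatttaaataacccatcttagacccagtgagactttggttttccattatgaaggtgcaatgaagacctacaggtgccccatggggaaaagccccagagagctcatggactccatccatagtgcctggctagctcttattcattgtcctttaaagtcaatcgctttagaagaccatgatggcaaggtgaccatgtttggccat
Neither window, searched on both strands, holds the homeodomain motif TAATTA or the TATA motif TATAAA, and so no base is in capitals. These letters occur in 4.84% and 12.4% of all 32851 windows of the same length, and in 18.0% and 38.9% of those of olfactory receptor genes. Of the latter, however, 72.4% begin at the start codon. The 252 receptor windows that do not had the motifs in 17.9% and 31.0%, and the 54 such windows of member genes in 14.8% and 25.9%. GC content was 51.6% in the Olfr544 window and 42.0% in that of Olfr1443. The median was 34.0% in all 913 olfactory receptor windows, 36.0% in the 252 and 38.6% in the 54.

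Of 11 receptor genes known outside the nose, Olfr544, Olfr1393 (studied in the kidney) and Olfr15 met the rule, with means of 2.10, -5.86 and -5.21. Olfr90 was above background on 11 arrays, Olfr691 on 8 and Olfr734, a receptor of asprosin, on 1. Olfr78 and Olfr558, receptors of short-chain fatty acids, and Olfr16 and Olfr99 were on none, and Olfr1392 had no probe. Among 26 genes of olfactory signalling and receptor expression with a probe, 19 had a probe on all 12 arrays, with Gnal at means of -3.94 and -4.91 and the receptor chaperones Rtp1 and Rtp2 at -5.82 and -2.44. In each of the 5 diet contrasts, 0 of these 35 probes passed the adjusted test by limma or by the methods' t-test (log2 values, equal variances). In DJ526 against Ctrl, 4 had an unadjusted p under 0.05 by limma, and 3 by the methods' t-test. Of the 4, 3 were higher (against 6.49% of all probes) and 1 lower (against 4.31%). The median over the list was 0.02, as over all probes. In bulk liver RNA, fewer cells of a type and less RNA per cell cannot be told apart.

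Resveratrol added to starch and sucrose, and rice in their place, were first compared with Ctrl. In RS against Ctrl, 0 members were called by limma (0% of all probes), with 38 at an unadjusted p under 0.05. Of these 35 were higher, against 4.05% of all probes, and 3 were lower, against 1.96%. The methods' t-test gave 19 members unadjusted and 0 after adjustment. Unadjusted t-test counts, here and in the other contrasts, cannot be set against a share over all probes, which was not counted. The median difference of the members was 0.20 on the log2 scale, against 0.03 for all probes, and it rested on 1 mouse. Among 205 members with 1 spot outside the lower left corner of the array, whose bounds are given with the called genes, RS 3 read 0.69 above the Ctrl mean in the median, and RS 1 and RS 2 together read 0.01. Without RS 3 the median of all members was 0.02, and without RS 1 it was 0.34. RS mice did not overlap Ctrl mice in 34 members that were higher (against 6.24% of all probes) and in 7 that were lower (against 3.99%). In DJ against Ctrl, 0 members were called (0% of all probes), with 16 at an unadjusted p under 0.05 by limma and 24 by the methods' t-test. Of the 16, 14 were higher, against 2.67% of all probes, and 2 were lower, against 2.55%. The median difference was 0.01. DJ mice read wholly above Ctrl mice in 29 members (against 4.48% of all probes) and wholly below in 4 (against 4.86%). DJ 1, which shared slide 1 with the Ctrl arrays, read 0.10 above them.

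**Figure D1:**
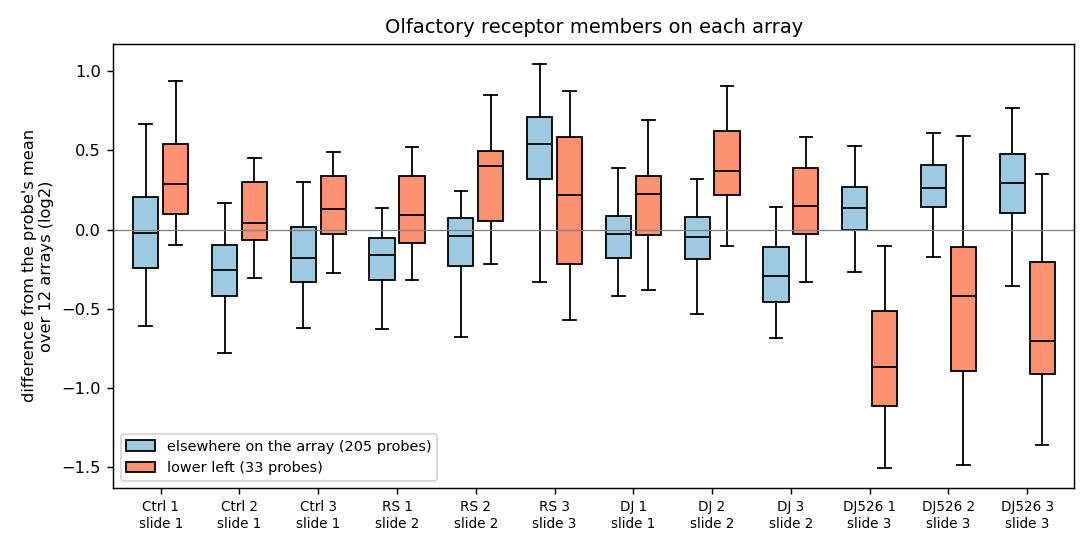
Boxes (quartiles, line at the median, whiskers at the 5th and 95th percentile) of the difference between a member's value on an array and its mean over the 12 arrays, in log2 units, for single-spot members in the lower left of the array (33) and elsewhere (205). RS 3 and the DJ526 arrays, all on slide 3, stand above 0 elsewhere, and the DJ526 arrays stand below 0 in the lower left.

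DJ526 was the diet in which single receptors passed the test. The signal of Olfr638 (class I) fell against all 3 other groups, that of Olfr1349 (class II) against DJ and that of Olfr209 (class II) against RS, which made 1 member called against Ctrl (0.00507% of all probes), 2 against DJ (0.0101%) and 2 against RS (0.00761%). All 5 calls were lower, and 0 members were called higher. These 3 contrasts share the DJ526 arrays. Unadjusted, 93, 67 and 25 members had p under 0.05 by limma. The methods' t-test had 98, 88 and 20, of which 0 remained after adjustment, and its unadjusted share over all probes was not counted. Against Ctrl, 66 of the 93 were higher (6.49% of all probes) and 27 lower (4.31%). Against DJ, 43 were higher (5.62%) and 24 lower (4.18%), and against RS, 5 were higher (2.35%) and 20 lower (3.15%). The 3 genes had been named in an earlier account of these data.

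Olfr638 read -3.05, -3.28 and -3.35 in Ctrl, -3.07, -2.96 and -2.42 in RS, -2.86, -2.83 and -3.21 in DJ and -6.05, -6.46 and -5.28 in DJ526. The 9 mice on other diets lay together and the 3 DJ526 mice far below them. The difference from Ctrl was -2.70 (SE 0.28, adjusted p = 0.0305), that from DJ -2.96 (adjusted p = 0.0169) and that from RS -3.11 (adjusted p = 0.0103). Olfr1349 read -3.13, -3.26 and -3.35 in Ctrl, -3.13, -2.76 and -3.81 in RS, -3.07, -2.68 and -3.10 in DJ and -5.27, -5.46 and -4.97 in DJ526. Again no DJ526 mouse overlapped the others, and RS 3 was the lowest of the 9. Its difference from DJ was -2.28 (SE 0.25, adjusted p = 0.0231), and those from Ctrl, -1.99, and from RS, had adjusted p = 0.0882 and 0.0628. Olfr209 read -2.31, -2.52 and -2.69 in Ctrl, -2.52, -2.29 and -1.45 in RS, -2.29, -2.56 and -2.62 in DJ and -4.34, -4.19 and -4.19 in DJ526. Here RS 3 was the highest of the 9 mice. Its difference from RS was -2.15 (SE 0.24, adjusted p = 0.0261), from DJ -1.75 (adjusted p = 0.0608) and from Ctrl -1.73 (adjusted p = 0.104).

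These calls depended on the fit. Fitted on only the 2 groups compared, or with the methods' t-test, 0 of the 5 remained, and against Ctrl the call of Olfr638 was lost with the slide as a block (-3.14, adjusted p = 0.192) and when any of 9 mice was left out (all but RS 1, RS 3 and DJ526 3). Within slide 3, where DJ526 and RS 3 can be compared, the difference of the 3 DJ526 arrays from RS 3 was -3.51 for Olfr638, -2.79 for Olfr209 and -1.42 for Olfr1349 (3 arrays against 1, no test). The calls against DJ went to 0 without Ctrl 2, Ctrl 3, DJ 2, DJ 3, DJ526 1 or DJ526 2 and to 1 without Ctrl 1 or DJ526 3, and those against RS went to 0 without RS 2 or DJ526 1 and to 1 without any Ctrl mouse, DJ 2, DJ 3, DJ526 2 or DJ526 3. Leaving out RS 3, the array that stood apart, leaves only DJ526 arrays on slide 3, so that diet and slide cannot be told apart. That fit called 15 members against Ctrl (0.439% of all probes). Of these, 9 were lower, all in the corner of the array described next, and 6 were higher (Olfr122, Olfr128, Olfr141, Olfr424, Olfr549 and Olfr901). Without RS 3, 12 were called against DJ (0.271% of all probes) and 5 against RS (0.071%). Without DJ 1, 4 were called against DJ (0.0583%) and 5 against RS (0.038%), and without RS 1, 2 were called against Ctrl (0.0203%).

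**Figure D2:**
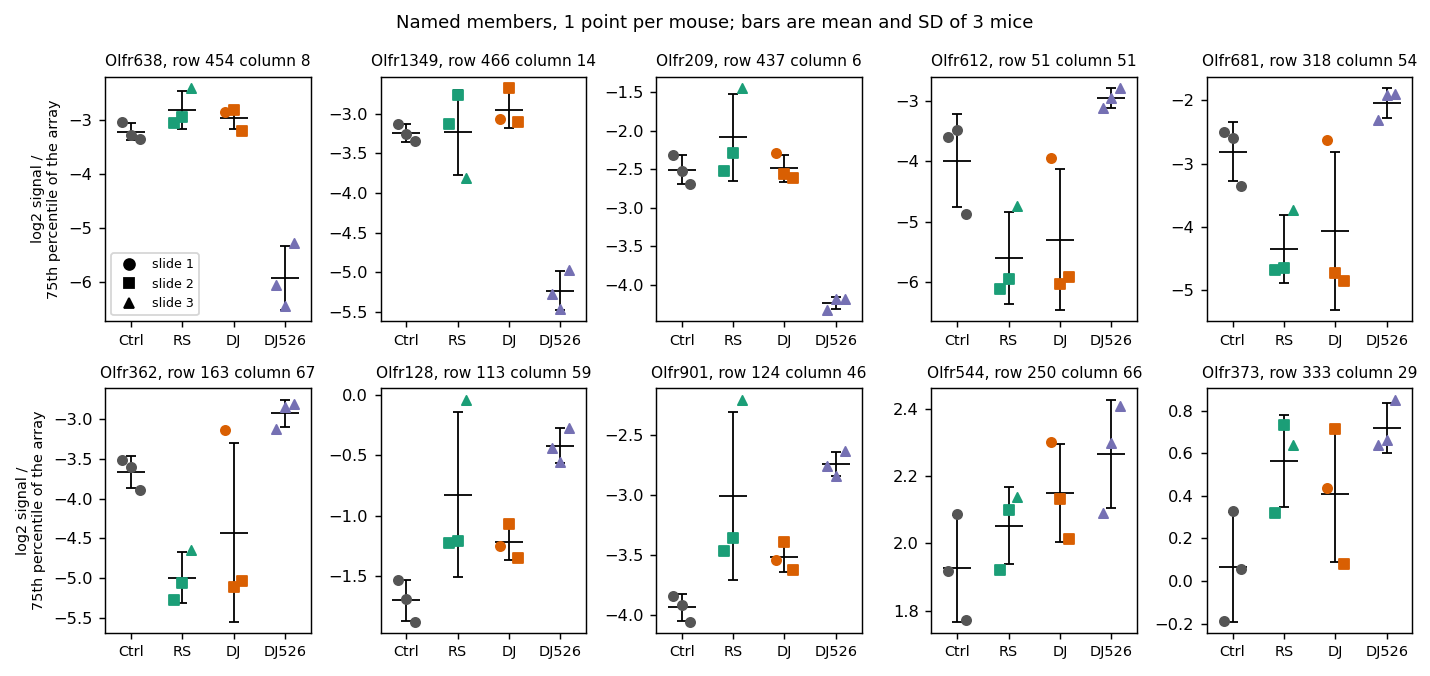
Values of 10 named members, 1 point per mouse (marker shape gives the slide), as log2 signal over the 75th percentile of the array, with mean and SD of 3 mice; axes differ between panels. Olfr638, Olfr1349 and Olfr209 stood lowest in DJ526, Olfr612, Olfr681 and Olfr362 were low on slide 2, and Olfr128 and Olfr901 were highest on slide 3.

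The place of the spot on the array moved with these differences. Olfr638 sat at row 454 and column 8, Olfr1349 at row 466 and column 14 and Olfr209 at row 437 and column 6, in the lower left of the array (row 372 or more and column 45 or less, bounds that were themselves set with DJ526 values of these data in view). The 33 members there had a median DJ526 minus Ctrl of -0.87, against 0.37 for the 205 single-spot members elsewhere. In the lower left 28 of 33 were lower in DJ526, 13 of them (39.4%, against 1.91% of all probes) below -1, and elsewhere 178 of 205 were higher and 66 (32.2%, against 10.8% of all probes) were above 0.5. For RS against Ctrl and DJ against Ctrl the lower left members had medians of 0.01 and 0.06. The part of spot position in the calls was not tested with another array layout. DJ526 lay wholly below Ctrl in 21 of the 33 lower left members (63.6%, against 8.08% of all probes) and wholly above in 0 (against 12.5%).

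Beside Olfr638, Olfr1349 and Olfr209, the largest lower left differences from Ctrl were those of Olfr1564 at -1.81, Olfr671 at -1.80, Olfr94 at -1.63 and Olfr456 at -1.35. Olfr671 read -3.63, -3.88 and -3.86 in Ctrl and -5.38, -5.18 and -6.22 in DJ526, with RS 3 at -4.68 and the other 5 mice between -3.96 and -3.53. In Olfr1564 the RS 3 mouse (-5.69) was as low as the DJ526 mice (-5.37, -5.34 and -5.45), and the other 8 lay between -4.03 and -3.32. Olfr94 also had RS 3 (-4.78) level with the highest DJ526 mouse. Members higher in DJ526 in this part of the array were Olfr15 at 0.38, Olfr1033 at 0.35, Olfr1419 at 0.24, Olfr1383 at 0.17 and Olfr156 at 0.06. Of the 3 neighbouring class II genes Olfr1347, Olfr1348 and Olfr1349 of chromosome 7, Olfr1347, at row 398 and column 58, read 0.35 higher in DJ526 than in Ctrl, Olfr1348, at row 518 and column 9, had -0.88, and Olfr1349, also in the corner, had -1.99.

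From the top of the array, the median DJ526 minus Ctrl of the single-spot members was 0.49 in rows 1 to 90, 0.59 in rows 91 to 180, 0.40 in rows 181 to 270 and 0.28 in rows 271 to 371. It was -0.08 in rows 372 to 450 and -0.85 in rows 451 to 532. In columns 1 to 45 the median went from 0.38 in rows 271 to 371 to -0.50 in rows 372 to 450 and -1.26 in the last band, and in the columns beyond 45 it was 0.22, 0.20 and -0.46. RS 3 also fell from top to bottom, with a median of 0.96 above Ctrl in the first band and -0.45 in the last. In those bands RS 1 and RS 2 together gave -0.01 and -0.11. Unlike DJ526, RS 3 read alike on both sides in the last band, at -0.46 in columns 1 to 45 and -0.45 beyond. Elsewhere than in the lower left the classes read alike, with a median of 0.34 in 21 class I members and 0.38 in 178 class II members. In the lower left, 5 class I members had -1.13 and 27 class II members -0.75, and the classes were not tested against each other.

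**Figure D3:**
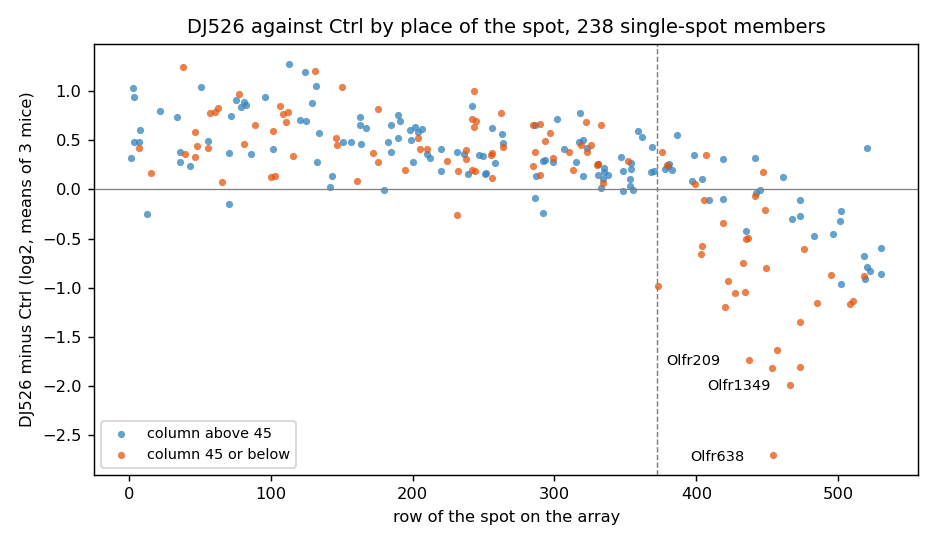
DJ526 minus Ctrl (log2, means of 3 mice) against the row of the spot, for 238 single-spot members, coloured by column; the dashed line is row 372. Most points above that row number fall below 0, the deepest in the left columns, and most points at lower row numbers lie above 0.

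Of 29 lower left members with a mean below -3, 12 (41.4%) had a DJ526 minus Ctrl below -1, and of 1325 lower left probes of no chemosensory gene with a mean below -3, all well above background on 12 arrays, 71 (5.36%) had. Their levels were not matched, with a median level of -4.79 for the members and -4.44 for the other probes. The median differences were -0.88 and -0.10. Elsewhere the median of 174 dim members was 0.37 and that of 7552 other dim probes 0.13. Dim probes of other chemosensory receptors had a median of 0.41 elsewhere (39 probes) and -0.49 in the lower left (11 probes, 1 of them below -1). Single dim probes of the corner differed among the signalling genes. Gnal at row 489 and column 14 (mean -4.91) had -0.04, and Cngb1 at row 451 and column 17 (mean -4.56) had -0.09. Gng13 at row 517 and column 45 (mean -6.51, above background on 8 arrays) had -1.13.

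The 5 members were printed 10 times on each array, with spots in both parts, and compare the places with the same sequence and the same RNA. For Olfr1307, 2 lower left spots averaged -3.29 in Ctrl and -4.88 in DJ526, and its 8 spots elsewhere averaged -3.56 and -2.76. The gap between the 2 places (lower left minus elsewhere) was 0.46, 0.17 and 0.18 on the Ctrl arrays and -2.08, -2.16 and -2.14 on the DJ526 arrays. RS 3 had -1.22, where its 2 lower left spots read -2.55 (row 473, column 11) and -4.80 (row 478, column 32). The other 5 arrays had 0.09 to 0.18. On RS 3 the gap was negative for Olfr868, Olfr713 and Olfr53 too (-1.36, -0.26 and -0.45) and was 0.61 for Olfr74. In DJ526, Olfr868, Olfr713, Olfr74 and Olfr53 had lower left differences from Ctrl of -0.87, -0.65, -1.55 and -0.61 and differences elsewhere of 0.51, 0.40, 0.48 and 0.20. All 10 lower left spots of the 5 probes read lower in DJ526 than in Ctrl, and 36 of 40 spots elsewhere read higher. Of 30 lower left spot readings on DJ526 arrays, 19 carried the software's outlier flag, against 2 of 120 elsewhere. Flagged spots are left out of a probe's mean. A probe with 1 spot has no value on an array where that spot is flagged, and no member lacked a value. With the flagged spots kept, Olfr1307 was 0.33 higher in DJ526 than in Ctrl, and 0.67 without them. Over 11 olfactory receptor probes with spots in both places, members or not, the lower left difference was smaller than that elsewhere in 11, by a median of -1.05, and over 140 such probes of other genes it was smaller in 87, by -0.10.

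**Figure D4:**
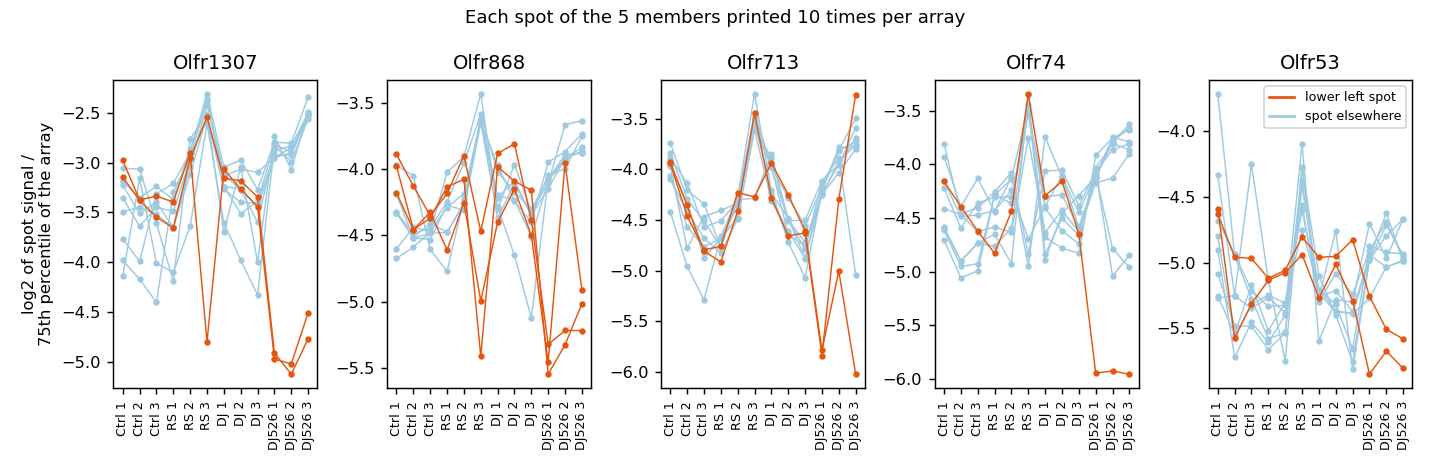
Every spot of the 5 members printed 10 times, as log2 of the spot's signal over the 75th percentile of the array, across the 12 arrays; lower left spots in orange, spots elsewhere in blue, flagged spots included. Lower left spots lay among the others on slides 1 and 2, and most of them lay below the others on the DJ526 arrays, with RS 3 mixed.

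Olfr456 offered the same contrast with 2 probes. The one at row 473 and column 35 read -4.16, -5.14 and -4.76 in Ctrl and -6.48, -5.69 and -5.93 in DJ526, and the one at row 445 and column 70 read -3.43, -4.07 and -3.63 and then -3.74, -3.61 and -3.82. DJ526 lay wholly below Ctrl for the first and within its range for the second. Their differences from Ctrl were -1.35 and -0.01. Subtracting from each array the median deviation of probes of other genes with like signal in the same part of the array left Olfr638 at -2.56 against Ctrl (adjusted p = 0.0690), where it was -2.70 without the adjustment. With a finer grid of array positions, chosen after seeing the data, it was -2.53 and the call was kept (adjusted p = 0.0121). Both adjustments take out only the shift seen in probes of other genes. Over the corner, dim probes of no chemosensory gene had a median DJ526 minus Ctrl of -0.10, against -0.88 for dim members. A larger position shift of receptor probes would thus stay in, and the call was not tested against one.

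Most members elsewhere on the array read higher in DJ526 than in Ctrl, with no call. Over all members, DJ526 did not overlap Ctrl in 109 that were higher (44.9%, against 12.5% of all probes) and in 24 that were lower (9.88%, against 8.08%), and 107 of the former and 3 of the latter were among the 205 elsewhere. Against DJ the counts were 104 (against 12.1%) and 24 (against 6.29%). Against RS they were 6 (2.47%, against 4.99%) and 21 (8.64%, against 6.15%). In 5 members DJ526 lay above all 9 other mice (0.93% of all probes) and in 17 below them (1.53%), 16 of the latter in the lower left. The 4 arrays of slide 3, RS 3 among them, lay above the other 8 in 66 members (27.2%, against 3.71% of all probes) and below them in 11 (4.53%, against 1.02%). The median member difference was 0.32 for DJ526 against Ctrl, 0.28 against DJ and 0.10 against RS, where all probes had 0.02, 0.04 and -0.00. Against RS it was 0.28 without RS 3, -0.02 without RS 1 and 0.01 without RS 2. With the position adjustment the medians were 0.17, 0.11 and 0.04. With a term for the slide in the fit, the member medians became -0.19, -0.30 and -0.33, and on slide 3 itself the DJ526 arrays read lower than RS 3 by a median of -0.32 elsewhere and -0.59 in the lower left.

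Olfr128 and Olfr901 (both class II, in the upper part of the array) were the clearest of that kind. Olfr128 read -1.54, -1.69 and -1.88 in Ctrl, -1.23, -1.21 and -0.04 in RS, -1.25, -1.07 and -1.35 in DJ and -0.44, -0.56 and -0.27 in DJ526. RS 3 was the highest of the 12 and the other RS mice lay with DJ. Olfr901 ran in step with it (Pearson r of 0.993 over 12 arrays, which share slides and scaling). In all, 260 probes of the array followed Olfr128 with r over 0.9, among them 21 members, Olfr901 included. Olfr901 had Ctrl at -3.84, -3.92 and -4.06, RS 3 at -2.21 and DJ526 at -2.76, -2.84 and -2.64. Their differences from Ctrl, 1.28 and 1.19, had adjusted p = 0.133 and 0.162. Without RS 3 both were called, in a fit where slide 3 holds only DJ526 arrays and diet and slide cannot be told apart.

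Olfr612, Olfr681 and Olfr362 had another pattern and were the members, other than lower left ones, with the widest range between diets. Olfr612 (class I) read -3.60, -3.49 and -4.87 in Ctrl, -6.11, -5.95 and -4.73 in RS, -3.95, -6.03 and -5.90 in DJ and -3.11, -2.95 and -2.79 in DJ526. The low values were the 4 arrays of slide 2, and DJ 1, on slide 1, read with Ctrl. Olfr681 read -2.49, -2.60 and -3.35 in Ctrl, -4.68, -4.64 and -3.73 in RS, -2.62, -4.72 and -4.85 in DJ and -2.31, -1.92 and -1.89 in DJ526, and its second probe, on 6 arrays, differed by -0.14 between DJ526 and Ctrl where the first differed by 0.77. Olfr362 (class II) read -3.51, -3.60 and -3.90 in Ctrl, -5.27, -5.06 and -4.64 in RS, -3.14, -5.11 and -5.04 in DJ and -3.13, -2.86 and -2.81 in DJ526. In all 3, DJ526 was above the other 9 mice and slide 2 below the other 8 arrays. Over all 243 members, slide 2 lay below the other slides in 9 (3.70%, against 1.13% of all probes) and above them in 0 (against 0.488%). The 3 genes followed each other with r of 0.963 to 0.988 over the 12 arrays, and 27, 33 and 30 probes of the array followed each of them with r over 0.9. None of the 3 was called with all 12 mice in the fit by group alone. With the slide as a block, Olfr362 was 1.71 higher in DJ526 than in RS (adjusted p = 0.0354), 1 of 4 members called in that fit (0.101% of all probes). Without DJ 1, Olfr362 and Olfr681 were called higher in DJ526 than in DJ, and also higher than in RS.

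The last comparison asked whether the effect of resveratrol differed between rice (DJ526 against DJ) and starch and sucrose (RS against Ctrl). It called 0 members (0% of all probes), with 28 at an unadjusted p under 0.05, of which 5 were higher (2.74% of all probes) and 23 lower (3.35%). In 3 members (against 0.551% of all probes), Olfr681, Olfr362 and Olfr1052, RS did not overlap Ctrl and DJ526 did not overlap DJ in the opposite direction. The lowest adjusted p was that of Olfr638, at 0.109, with a difference of effects of -3.37 (SE 0.40). The median over the members was 0.07, with -0.08 without RS 1, 0.26 without RS 3 and -0.03 with the position adjustment, and 17 of the 23 lower ones were in the lower left. With the slide as a block 1 member, Olfr209, was called (-3.02, adjusted p = 0.00935, 0.0431% of all probes). Without DJ 1, 3 members were called (0.0482% of all probes), namely Olfr362, Olfr638 and Olfr681, and without DJ526 3, Olfr638 was called (0.00254%).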

How the data were processed

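Liver RNA of 12 mice was labelled with Cy3 and hybridised to 1 one-colour array per mouse. The authors deposited, for each spot, the signal intensity on a linear scale as Feature Extraction (version 11.5.1.1, per the file headers) gave it, with the background-subtracted processed signal, outlier flags and the call of well above background. They also deposited a globally normalized intensity table, used here as an alternative. Groups came from the labels, which for RS and DJ differ from a sample sheet issued with the study.

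Spots flagged as outliers and control spots were dropped, replicate spots of a probe were averaged, and each probe's processed intensity was divided by its array's 75th percentile before taking log2. Of all probes, 68 had no value on at least 1 array, none of them a member. Gene names came from matching each probe's accession to RefSeq (GRCm38.p6; 27508 of 39429 probes matched); the array design itself is annotated on mm9. No probe had a saturated spot. A probe with several spots was well above background only where all its spots were.

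limma (version 3.58.1, R 4.3.3) was fitted to all 39429 probes with 1 mean per group over the 4 groups and an empirical Bayes trend on mean signal (residual degrees of freedom 8, median prior degrees of freedom 2.98). P-values are two-sided, with Benjamini-Hochberg adjustment across the whole array and calls at 0.05. Each mouse is 1 sample; 3 arrays per group limit the precision. The fit was tested on simulated data. Tables and plots were made with Python 3.11.15, numpy 2.4.6, pandas 2.3.3 and matplotlib 3.10.9.

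The members and gene lists were chosen with earlier results of these data known. Named members were those called in any contrast, the 8 with the highest and 3 with the lowest mean, the 8 with the widest range between group means, those in which DJ526 stood apart from the other 9 mice, those of the lower left corner, those of an earlier account, receptors known outside the nose, probes that missed the rule on 1 array and genes with 2 member probes. Olfr128, Olfr901, the second probes of named genes and the corner probes of Gnal, Cngb1 and Gng13 were named after their values were seen. Alternatives were other scalings, normexp (offset 50, on the median pixel, as the files held no mean pixel), the deposited table, detected probes only, no trend, slide and replicate blocks, the 2 groups only, the methods' t-test, 2 position adjustments (the finer one, in cells of 54 rows by 17 columns, chosen after seeing the data) and leaving out each mouse. Probe and protein sequences were not used here.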

Additional observations from a re-analysis of the deposited data

Results flagged for a closer look

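In 3 members every RS mouse read on one side of every Ctrl mouse and every DJ526 mouse on the opposite side of every DJ mouse (3 of 243 members, against 0.551% of all probes). In Olfr681 the difference of the effects (DJ526 against DJ minus RS against Ctrl) was 3.57 on the log2 scale (adjusted p = 0.422, limma), in Olfr362 2.82 (adjusted p = 0.428) and in Olfr1052 -1.20 (adjusted p = 0.602), and none passed the test. Olfr681 and Olfr362 were low on all 4 arrays of slide 2, which held RS 1, RS 2, DJ 2 and DJ 3. DJ526 and DJ shared no slide, so that diet and slide cannot be told apart in that contrast. The second Olfr1052 probe, at row 484 and column 63, was above background on 2 arrays and differed the other way in both contrasts. It had -1.16 in RS against Ctrl and 0.64 in DJ526 against DJ, where the member had 0.62 and -0.58. Groups of 3 mice were too small for a search for single outlying mice.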

How the results depend on the processing

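In RS against Ctrl and DJ against Ctrl, 0 members were called under every alternative run. In what follows, calls over all probes stand in brackets after those of members. Against Ctrl, 1 member was called in DJ526 (2). The array median gave 2 (4), quantile normalization 2 (9) and detected probes only 2 (3). Normexp, no variance trend, the slide block, the 2 groups only and the methods' t-test gave 0 (0) each. The position adjustment gave 0 (1) and the finer one 1 (2). Against DJ, 2 were called (4). Quantile normalization gave 5 (27) and detected probes only 4 (8). Normexp gave 1 (1), the slide block 1 (4), and the position adjustment and the finer one 1 (2) each. The 2 groups only gave 0 (0) and the methods' t-test 0 (1). Against RS, 2 were called (3). The slide block gave 4 (40), normexp and no variance trend 1 (1) each, and the 2 groups only and the methods' t-test 0 (0) each. For the difference of the effects of resveratrol, 0 were called (0), and the slide block gave 1 (17). Leaving out 1 mouse gave 0 to 15 calls (0 to 173) against Ctrl and 0 to 12 (0 to 107) against DJ. It gave 0 to 5 (0 to 28) against RS and 0 to 3 (0 to 19) for the difference of effects. With the replicate number as a block, 0 members were called in each contrast. Same-numbered mice of different groups, 18 pairs in all, deviated from their group means with correlations of -0.35 to 0.41 (mean 0.03). Deviations within a group of 3 mice cancel out, so that these correlations cannot decide whether the numbers pair the mice.

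The median member difference moved beyond the spread of the arrays' own medians (0.21) with normexp, to 0.10 against Ctrl and 0.0051 against DJ, and with the slide block, to -0.19 against Ctrl, -0.30 against DJ, -0.33 against RS (also within slide 3) and -0.43 for the difference of effects; with that block the median of all probes moved to -0.12 against Ctrl. Within that spread, the position adjustment brought it from 0.32 to 0.17 against Ctrl, from 0.28 to 0.11 against DJ and from 0.20 to 0.12 in RS against Ctrl. Asking for detection on all arrays of at least 1 group gave 375 receptor probes and on any array 626, in place of 243. The differences of Olfr638, Olfr1349 and Olfr209 between DJ526 and each other group kept their sign under each of the 24 alternatives, and normexp brought Olfr638 against Ctrl to -1.21. The cause of these changes was not tested. The methods' t-test was not run for the difference of effects, which has 4 groups. Signals near background and 3 mice per group limit what could be called.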
